A study of Mus musculus and Homo sapiens with 22 samples.

Results

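The regions described here are stretches of RNA that reacted strongly with a structure probe in every nuclear and cytoplasmic fraction of a cell line, both inside living cells and after the RNA had been purified and refolded. Each transcript was divided into consecutive windows of 20 nucleotides (nt) from its first nucleotide. A window was called open when all 20 nt had a score in all 6 files of its cell line and the mean score was 0.35 or more in each file. The members were therefore chosen by their own scores, and those scores are given below as a description with no test. Of 46488 windows scored in all 6 files of their cell line, 679 were open: 182 of 9346 in HEK293 and 497 of 37142 in mES cells.

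icSHAPE (in vivo click selective 2′-hydroxyl acylation and profiling) uses the cell-permeable reagent NAI-N3, which modifies the 2′-hydroxyl of flexible nucleotides. Reverse transcription stops at the modified positions, so a high score marks a nucleotide that was flexible, usually unpaired, and a low score one that was constrained by pairing or by contact with another molecule. Purified and refolded RNA lacks the proteins, ribosomes and helicases of the cell. A window open in all 6 files is thus one with high reactivity under both conditions.

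The cells were HEK293, an established human embryonic kidney line, and V6.5 mouse embryonic stem (mES) cells, neither with a further genetic change or drug named in the labels. Each was separated into chromatin, nucleoplasm and cytoplasm. For the in vivo files, cells received NAI-N3 for 5 min at 37 °C before fractionation. For the in vitro files, RNA was extracted from each fraction, denatured, refolded in a magnesium-containing buffer and then probed for 5 min at 37 °C. Per the submitters' design text the scores were calculated with solvent-treated (DMSO) samples as background, with 1 such sample per fraction, so the in vivo and in vitro scores of a fraction can share that background. Each of the 12 combinations of line, fraction and probing was deposited as 1 file. The labels speak of sequencing per replicate, so a file may pool replicates, but none can be separated here and no difference between files could be set against replicate spread. Intervals of shares below are 95% exact Clopper-Pearson intervals, and those of a median position are distribution-free 95% intervals from the ordered values. Both cover counting error only, and windows of a transcript are not independent. The tables used here do not pair the transcript identifiers with genes or sequences, so transcripts are named by identifier, and the fraction labels could not be checked against marker transcripts.

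Open windows were a small share of what could be scored. They made up 1.95% of the scorable windows in HEK293 (interval 1.68% to 2.25%) and 1.34% in mES cells (1.22% to 1.46%). In HEK293 they lay on 96 of 792 transcripts with a scorable window, and in mES cells on 252 of 1253. The share of scorable windows that reached 0.35 in a single file was several times higher. In HEK293 it was 17.5% in chromatin in vivo and 12.5% in vitro, 16.8% and 19.9% in nucleoplasm, and 14.1% and 20.1% in cytoplasm. In mES cells it was 21.8% in chromatin in vivo and 7.17% in vitro, 9.84% and 10.9% in nucleoplasm, and 12.1% and 8.02% in cytoplasm. Most scorable windows, 5445 in HEK293 and 25428 in mES cells, reached 0.35 in no file. Counts then fell with each further file, to 296 HEK293 windows and 628 mES windows that were open in exactly 5.

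The file that kept a window out of the 6-file set was not evenly spread. Of the 296 HEK293 windows open in 5 files, 69 were below 0.35 only in cytoplasm in vivo, and 32 only in nucleoplasm in vivo. Of the 628 such mES windows, 208 were missing only nucleoplasm in vivo, 179 only chromatin in vitro and 134 only cytoplasm in vitro, whereas 14 were missing only nucleoplasm in vitro. In mES cells nucleoplasm in vivo was also the lowest of the 6 means in 165 of the 497 open windows, and chromatin in vitro in 122. In HEK293 chromatin in vitro was the lowest in 53 of 182.

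A measure not used to choose the windows was the score in a file left out of the rule. When the rule was applied to 5 files only, the share of chosen windows that was also open in the left-out file ran from 72.5% (182 of 251; interval 66.5% to 77.9%; cytoplasm in vivo) to 85.05% (182 of 214; 79.6% to 89.5%; nucleoplasm in vivo) in HEK293. In mES cells it ran from 70.5% (497 of 705; 67.0% to 73.8%; nucleoplasm in vivo) to 97.3% (497 of 511; 95.5% to 98.5%; nucleoplasm in vitro). Each of these shares stood beside a single-file background of at most 20.1% in HEK293 and 21.8% in mES cells. Windows chosen this way seldom had an ordinary score in the remaining file. In mES cells no more than 11 of the windows chosen for any left-out file lay below that file's median over scorable windows, and in HEK293 no more than 18.

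The rule was also applied to the 3 files of one probing condition and read in the 3 files of the other, which asks for 3 files at once and so cannot be set beside the shares above. Of 536 HEK293 windows open in all 3 in vivo files, 182 were also open in all 3 in vitro files (34.0%, interval 29.9% to 38.1%), where 6.40% of all scorable windows were open in all 3. In mES cells 497 of 2035 were (24.4%, 22.6% to 26.4%), beside 3.77% of all. In the other direction, 30.4% of 598 HEK293 windows and 35.5% of 1399 mES windows open in all 3 in vitro files were open in all 3 in vivo files, beside 5.74% and 5.48% of all. Most windows that were open in every fraction under one condition were therefore not open in every fraction under the other.

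**Figure D1:**
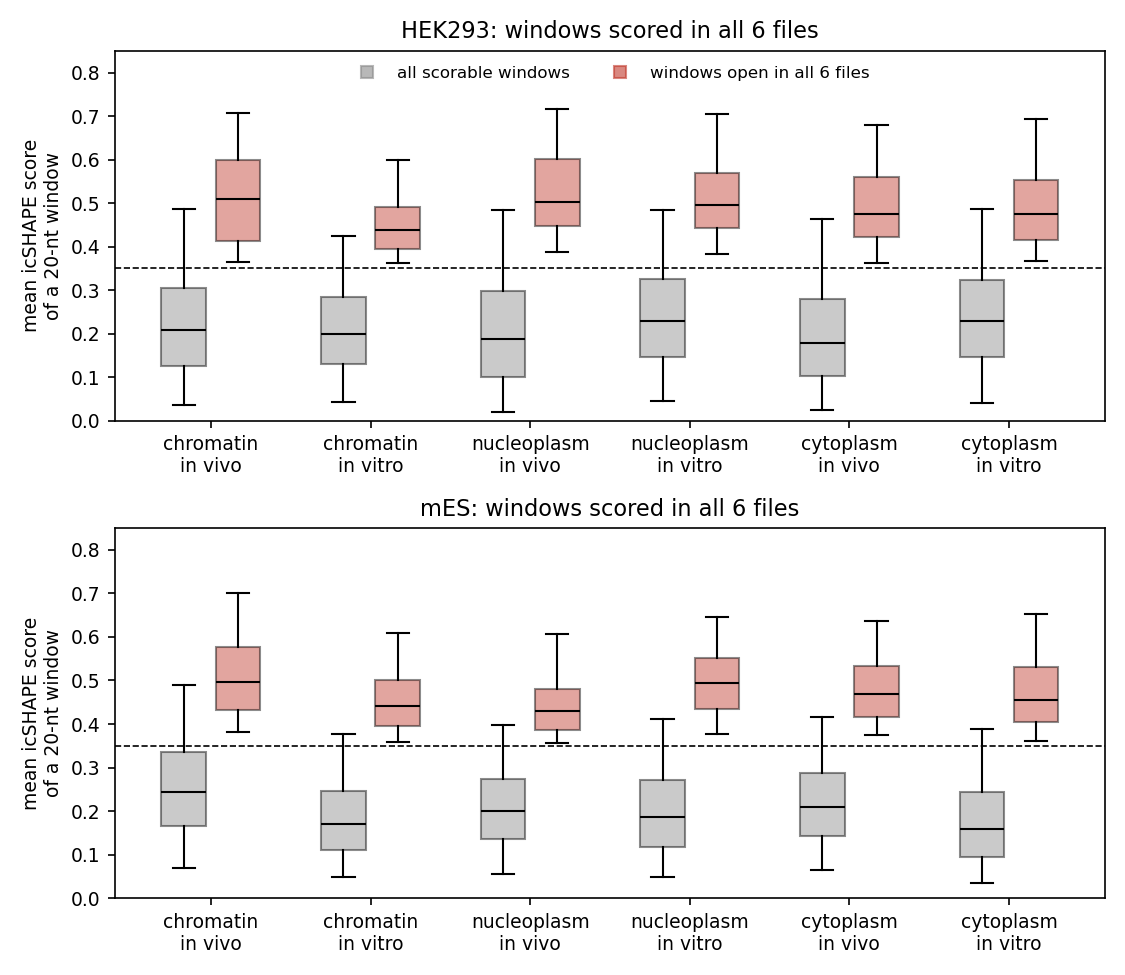
Mean icSHAPE score of 20-nt windows in each file, for all scorable windows (grey) and for windows open in all 6 files (red). Boxes span the quartiles with the median as a line, whiskers run from the 5th to the 95th percentile, and the dashed line is the 0.35 that chose the open windows, whose medians lie between 0.430 and 0.509.

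The medians of the open windows were close to each other over the files. The median score in HEK293 was 0.509 in chromatin in vivo and 0.438 in vitro, 0.503 and 0.495 in nucleoplasm, and 0.476 in cytoplasm under both conditions. The mES medians were 0.496 and 0.442 in chromatin, 0.430 and 0.494 in nucleoplasm, and 0.469 and 0.456 in cytoplasm. For all scorable windows the medians of the HEK293 files lay between 0.178 and 0.230, and those of the mES files between 0.159 and 0.243. The difference between the highest and lowest of a window's 6 means had a median of 0.198 in HEK293 (0.033 to 0.456) and 0.172 in mES cells (0.043 to 0.466). All 6 means were 0.5 or more in 15 HEK293 windows and 12 mES windows, and 0.6 or more in 2 and 1.

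All members were open under both conditions, and the side on which they scored higher differed between fractions. In chromatin 70.9% of the HEK293 open windows scored higher in vivo than in vitro (median difference 0.05), compared with 54.96% of all scorable windows. In nucleoplasm this was 53.8% (39.9% of all), and in cytoplasm 48.9% (37.1% of all). In mES cells 70.0% were higher in vivo in chromatin (74.5% of all), 26.2% in nucleoplasm (52.0% of all; median difference -0.06) and 50.9% in cytoplasm (67.6% of all). All 3 fractions pointed to in vivo in 50 HEK293 windows and to in vitro in 22, against 98 and 103 in mES cells. These are the scores that chose the windows, so the gap to all scorable windows is not free of the choice. Its cause was not tested, and nothing is read from it.

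The window with the highest floor in HEK293 was nt 3701 to 3720 of ENST00000290158, a transcript of 6139 nt. Its means were 0.833 in vivo and 0.932 in vitro in chromatin, 0.655 and 0.967 in nucleoplasm, and 0.661 and 0.750 in cytoplasm. In vitro was the higher value in each fraction. The next was nt 1301 to 1320 of ENST00000306434, at 0.698 and 0.638 in chromatin, 0.762 and 0.725 in nucleoplasm, and 0.601 and 0.749 in cytoplasm. In that window in vivo was higher in both nuclear fractions and in vitro in the cytoplasm. Nucleotides 281 to 300 of ENST00000361624 followed, at 0.552 and 0.644, 0.648 and 0.713, and 0.599 and 0.689 in the same order. The other named HEK293 windows with a high floor, between 0.509 and 0.549, were on ENST00000423485 (nt 2461 to 2480), ENST00000304218 (541 to 560), ENST00000363442 (61 to 80), ENST00000602755 (121 to 140), ENST00000366525 (1101 to 1120), ENST00000444376 (1541 to 1560) and ENST00000362079 (101 to 120). The range over files was smallest on ENST00000363442, a transcript of 313 nt, where the means lay between 0.531 and 0.625.

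In mES cells the highest floor belonged to nt 6581 to 6600 of ENSMUST00000172812, a transcript of 6983 nt. Its means were 0.718 in vivo and 0.750 in vitro in chromatin, 0.649 and 0.784 in nucleoplasm, and 0.772 and 0.798 in cytoplasm, with in vitro the higher in each. It was followed by nt 3401 to 3420 of ENSMUST00000000804, at 0.690 and 0.560, 0.592 and 0.683, and 0.689 and 0.603 in the same order. Here in vivo was higher in chromatin and cytoplasm, and in vitro in nucleoplasm. Nucleotides 3181 to 3200 of ENSMUST00000165123 had means of 0.553 and 0.558, 0.649 and 0.630, and 0.733 and 0.577, so that cytoplasm in vivo stood highest. The other named mES windows, with floors between 0.520 and 0.546, were on ENSMUST00000173314 (nt 21 to 40), ENSMUST00000079237 (221 to 240), ENSMUST00000169681 (1521 to 1540), ENSMUST00000004072 (181 to 200), ENSMUST00000034966 (521 to 540), ENSMUST00000020637 (2241 to 2260) and ENSMUST00000020886 (2001 to 2020). On ENSMUST00000079237 the 6 means differed by 0.068, between 0.540 and 0.607.

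The members closest to the threshold were nearly the same as the windows just below it. In HEK293 the lowest mean was 0.3502 at nt 1081 to 1100 of ENST00000437681 and 0.3503 at nt 81 to 100 of ENST00000464611, while nt 281 to 300 of ENST00000362079 (0.3494) and nt 3621 to 3640 of ENST00000358901 (0.3491) fell outside. In mES cells nt 321 to 340 of ENSMUST00000082409 (0.35) and nt 501 to 520 of ENSMUST00000050826 (0.3501) were inside, and windows of ENSMUST00000090006 (nt 3461 to 3480) and ENSMUST00000110452 (nt 261 to 280) were outside at 0.3499. The members that varied most over files were nt 181 to 200 of ENST00000361567, from 0.436 in cytoplasm in vitro to 0.892 in nucleoplasm in vivo, and nt 2701 to 2720 of ENSMUST00000128725, from 0.399 in cytoplasm in vivo to 0.865 in chromatin in vivo. The second of each line were nt 241 to 260 of ENST00000327892 (0.353 to 0.756) and nt 1541 to 1560 of ENSMUST00000141217 (0.386 to 0.815).

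Within an open window only some nucleotides were high in every file. A median of 7 of the 20 nt in HEK293 (2 to 12) and 6 in mES cells (1 to 13) had 0.35 or more in every file. The medians over all scorable windows were 0 and 1, a gap that follows from choosing windows by their means. The longest unbroken stretch of such nucleotides had a median of 4 nt in HEK293 (at most 8) and 3 nt in mES cells (at most 10). A score of exactly 1, the top of the scale, was given to 17.1% to 22.7% of nucleotides in HEK293 open windows and 16.9% to 22.2% in mES open windows, depending on the file, beside 3.65% to 4.44% in all scorable windows of either line. Scores of 0 also occurred, at 3.87% to 8.57% of nucleotides in the HEK293 windows; in the mES windows they were 3.68% to 15.96%.

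The profile along the 20 nt was compared between files. The median Pearson r between in vivo and in vitro scores of a fraction, over the 20 nt of a window, was 0.814 in chromatin, 0.831 in nucleoplasm and 0.665 in cytoplasm for the 182 HEK293 windows. For all scorable HEK293 windows it was 0.651, 0.720 and 0.499. In the 497 mES windows it was 0.716, 0.794 and 0.735, beside 0.606, 0.717 and 0.617. The files of a fraction can share their DMSO background and each r rests on 20 neighbouring nucleotides, so these values describe the windows and carry no test. Without the single nt of highest mean, 104 of 182 HEK293 windows (57.1%) and 244 of 497 mES windows (49.1%) kept 0.35 in all 6 files. Leaving out that nucleotide lowers the means by construction. The lowest of a window's 6 means had a median of only 0.390 in HEK293 and 0.381 in mES cells. These counts therefore cannot tell reliance on few nucleotides from nearness to the threshold. The odd-numbered and the even-numbered nucleotides each reached 0.35 in every file in 90 HEK293 windows (49.5%) and 193 mES windows (38.8%).

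Open windows were spread over many transcripts. No open window had the same scores in all 6 files as another. However, 14 HEK293 and 8 mES open windows matched a further open window in where their scores were 0. Depending on the file, 26.4% to 57.1% of HEK293 and 8.25% to 55.3% of mES open windows held no 0. Windows with few or no zeros can match in this way without being copies. Nucleotides 21 to 40 were open on ENST00000383873, ENST00000384172, ENST00000384637 and ENST00000384793, each 107 nt long, with different scores. As a check, transcripts whose zeros lay at the same places over a stretch of 60 nt were grouped into families. The 96 HEK293 and 252 mES transcripts with an open window fell into 96 and 252 families. With 1 transcript kept per family, 181 open windows remained in HEK293 and 497 in mES cells. Near copies whose zeros differ would be missed by this grouping. Their presence was not tested, so the counts of windows and transcripts may include such copies. In HEK293 64 of the 96 transcripts held 1 open window and 14 held 2, and in mES cells 145 of 252 held 1 and 48 held 2. Transcripts with an open window were longer than the other transcripts with a scorable window, with a median of 1452 nt against 297 nt in HEK293 and 2742 nt against 635 nt in mES cells. They also had more windows to score, with a median of 22 against 2 and 65 against 7. Of transcripts with 100 or more scorable windows, 14 of 15 in HEK293 and 86 of 100 in mES cells held an open window. Of those with 1 to 4 scorable windows, 14 of 495 and 1 of 382 did. Per scorable window, transcripts under 300 nt had the lowest share, 0.836% in HEK293 (8 of 957) and 0.581% in mES cells (5 of 860). In HEK293 transcripts from 300 nt to under 1000 nt (2.71%, 42 of 1548) and from 1000 nt to under 3000 nt (2.73%, 61 of 2236) had nearly equal shares, and longer ones 1.54%. In mES cells these were 1.12% (54 of 4802), 1.70% (165 of 9710) and 1.25%.

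The share of open windows moved with the abundance value deposited beside each transcript. When scorable windows were divided into 4 classes of like size by the lowest of the transcript's 6 abundance values, 1.23% were open in the lowest class in HEK293 (interval 0.81% to 1.78%) and 2.24% in the highest (1.69% to 2.91%). The HEK293 classes between these had 1.94% and 2.34%, so the highest class did not have the highest share. In mES cells the share rose from 0.603% (0.456% to 0.782%) through 1.07% and 1.62% to 2.06% (1.78% to 2.37%). No unit is stated for that abundance, and its part in these shares was not tested.

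The HEK293 transcript with the most open windows was ENST00000429829, of 19275 nt, with 11 of 888 scorable windows (1.24%). Its deposited abundance was 1908 and 2937 in the chromatin files and 46.9 to 68.7 in the other 4. All 11 windows began between nt 11741 and 16641. ENST00000423485 had 10 of 265 (3.77%), from nt 101 to 5420, and its top window was the one at nt 2461 named above. ENST00000361624 had 7 of 74 (9.46%), beginning at nt 241, 281, 621, 761, 1141, 1181 and 1441. Its abundance was 4930 and 4976 in nucleoplasm, 891 to 1122 in chromatin and 225 to 593 in cytoplasm. In mES cells ENSMUST00000172812 had 13 of 332 (3.92%), from nt 1821 to 6600, and abundance of 812 to 1232 in the nuclear fractions and 189 to 195 in cytoplasm. ENSMUST00000068031 had 10 of 213 (4.69%) and ENSMUST00000118152 10 of 371 (2.70%), the latter from nt 61 to 8700 of 8803. Except on ENST00000429829, the open windows of these transcripts were scattered over most of the length, with scorable windows below the threshold between them.

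**Figure D2:**
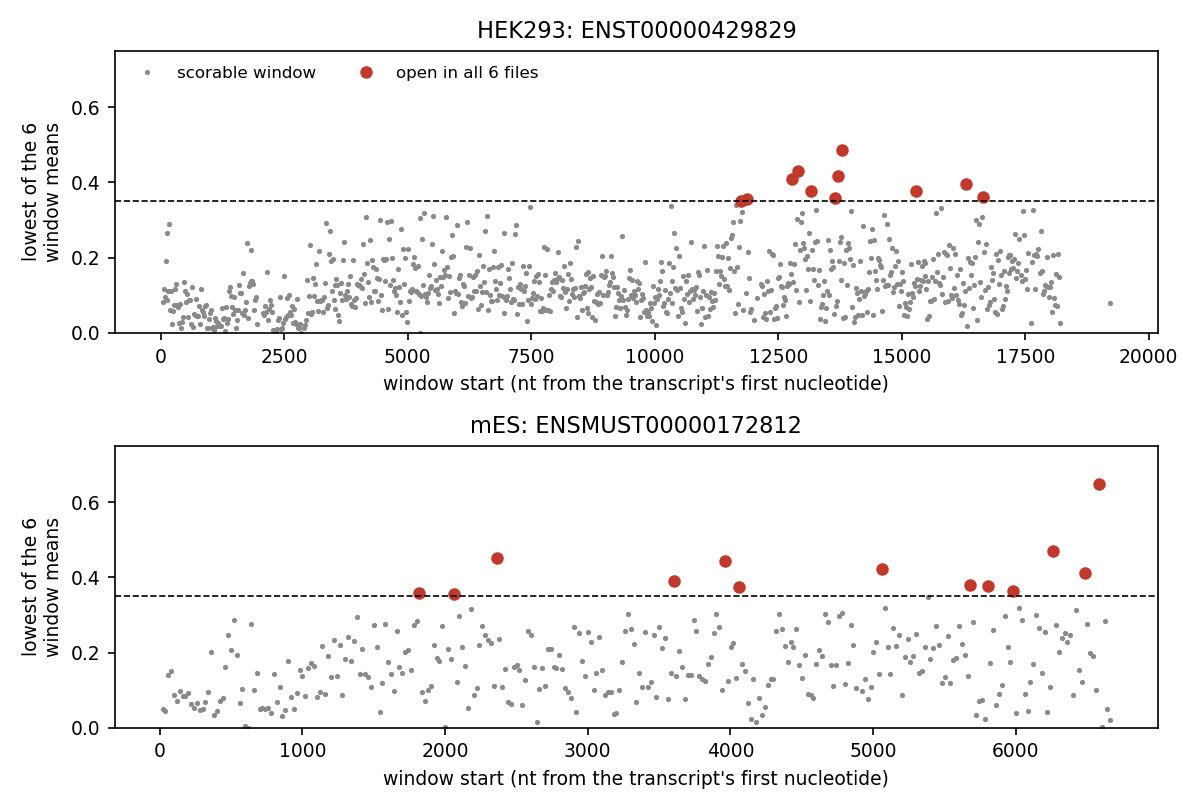
Lowest of the 6 window means (y axis, icSHAPE score) against window start (x axis, nt) for every scorable window of the transcript with the most open windows in each line. The 11 red HEK293 points lie between nt 11741 and 16660 of ENST00000429829, and the 13 mES points are spread over ENSMUST00000172812; the dashed line is 0.35.

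Position was not used by the rule. The centre of an open window lay at a median of 0.396 of the transcript length in HEK293 (interval 0.340 to 0.454), where 0 is the 5′ end. For all scorable windows the median was 0.494, and for those of the same transcripts 0.499. In mES cells it was 0.436 (0.409 to 0.485), beside 0.488 and 0.487. With the transcript cut in 10 equal parts, 3.82% of scorable HEK293 windows were open in the first (22 of 576; 2.41% to 5.73%) and 1.31% in the last. In mES cells the first had 1.73% and the last 1.14%. The median open window therefore lay nearer the 5′ end than the median scorable window in both lines. The intervals of the lines overlap, and with windows starting at nt 11 the medians were 0.434 in HEK293 and 0.408 in mES cells, so the lines are not ranked. All scorable windows had a slope of the same sign: their mean score in HEK293 was 0.238 in the 5′ part of the transcript when cut in 3 equal parts and 0.217 in the 3′ part, and 0.218 and 0.202 in mES cells.

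**Figure D3:**
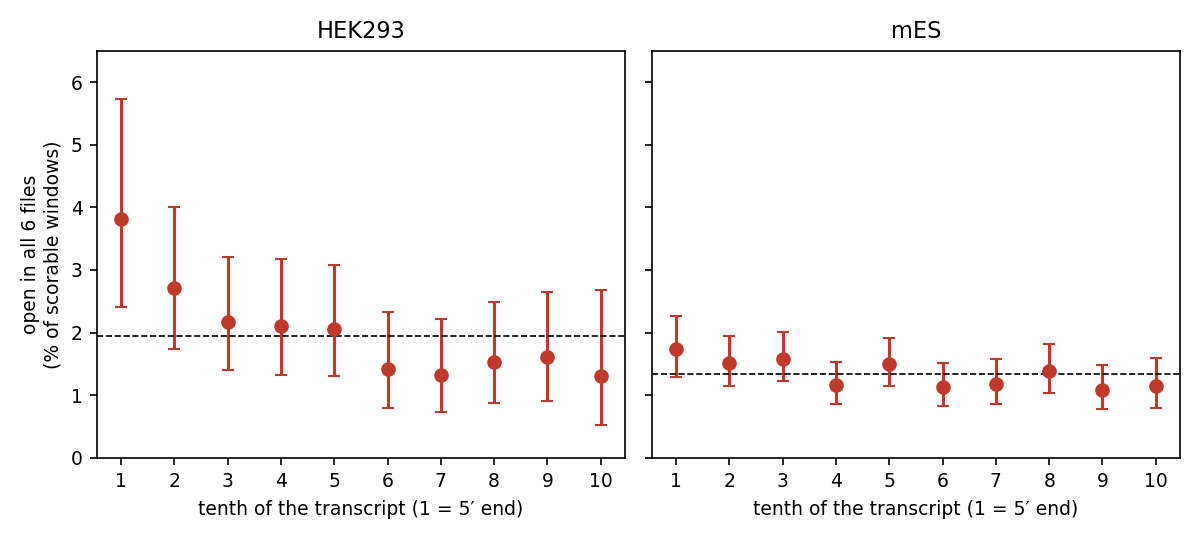
Share of scorable windows open in all 6 files (y axis, %) by position in 10 equal parts of the transcript from the 5′ end (x axis). Points are the shares, bars exact 95% intervals for counting error, and the dashed lines the shares over the whole transcript, 1.95% in HEK293 and 1.34% in mES cells; the HEK293 share is highest in the first of them.

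In nucleotides, the HEK293 share was highest from 100 to 300 nt after the start, at 3.51% (42 of 1197; 2.54% to 4.71%). In the first 100 nt it was 1.68% (19 of 1131; 1.01% to 2.61%), beside 1.95% over the whole transcript. In transcripts of 1000 nt or more it was 6.46% from 100 to 300 nt (21 of 325, on 16 transcripts; 4.04% to 9.71%) and 1.42% beyond 1000 nt (72 of 5052; 1.12% to 1.79%). The mES values for those transcripts were 2.01% and 1.28%. Their first 100 nt had 2.61% in HEK293 (3 of 115, interval 0.54% to 7.4%). In mES cells the first 100 nt had 2.59% (16 of 618, interval 1.49% to 4.17%). That mES share was above the one from 100 to 300 nt, with overlapping intervals. At the other end, open mES windows were scarce within 100 nt of the 3′ end, at 0.336% (7 of 2083; 0.135% to 0.691%), beside 1.77% from 300 to 1000 nt before it. With transcripts of 1000 nt or more alone they were 0.540% (4 of 741; 0.147% to 1.38%) and 1.70%. HEK293 had 1.41% (15 of 1062) and 2.48%. The last 30 nt of each transcript carry no score, and the first scorable window of any transcript began at nt 21, so neither end itself could be judged.

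Open windows seldom adjoined each other. In HEK293, 6 of 182 had an open window directly before or after them (3.30%; 1.22% to 7.04%), and in mES cells 12 of 497 (2.41%; 1.25% to 4.18%). Of the adjoining windows that could be scored, 6 of 329 were open in HEK293 (1.82%; 0.67% to 3.93%) and 12 of 899 in mES cells (1.33%; 0.69% to 2.32%). Each pair was counted from both of its members. There were 3 such pairs in HEK293 and 6 in mES cells, so the intervals of both shares are too narrow. The share over all scorable windows of the same transcripts was 3.41% and 2.19%, which includes the members themselves. The share of open windows with an open neighbour depended on the files required: over 5 files it was 7.94% in HEK293 and 5.53% in mES cells without nucleoplasm in vivo, and 7.12% and 3.85% without chromatin in vitro. In HEK293 it was 6.84% without nucleoplasm in vitro and 7.69% without cytoplasm in vitro. It also depended on the grid: with windows starting at nt 11 it was 4.73% in HEK293 and 3.82% in mES cells. One window further away the share in HEK293 was 7.30% on the 5′ side and 6.90% on the 3′ side, from the same 10 pairs. In mES cells it was 2.17% and 2.06%, from the same 9 pairs. The counts on both sides are equal by construction, so the sides are not separate observations. The distance from one open window to the next on a transcript had a median of 180 nt in HEK293 (86 pairs) and 440 nt in mES cells (245 pairs).

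Merging adjoining open windows gave 179 runs in HEK293 and 491 in mES cells. Of these 176 (98.3%) and 485 (98.8%) were single windows, and the rest, 3 and 6, were runs of 40 nt. No run was longer. The HEK293 runs were nt 1161 to 1200 of ENST00000361381, nt 261 to 300 of ENST00000309311 and nt 7741 to 7780 of ENST00000534336. The first had means between 0.469 and 0.704 in its first window and between 0.508 and 0.707 in its second. The run on ENST00000534336 had higher means in vivo than in vitro in every fraction, such as 0.724 and 0.494 in nucleoplasm in its first window. On ENST00000309311 cytoplasm was above chromatin in both windows and conditions, at 0.679 against 0.511 in vivo in the first. The mES runs named by the same rule were nt 1041 to 1080 of ENSMUST00000198856, 1581 to 1620 of ENSMUST00000059472 and 601 to 640 of ENSMUST00000105720. Even in these runs the reactivity came in short blocks. On ENSMUST00000198856 nt 1049 to 1052 scored 1 in all 6 files, nt 1059 scored between 0 and 0.088, and nt 1062, 1065 and 1071 again scored 1 in all 6.

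The fixed grid cuts some open stretches in pieces, so the rule was also applied at every start position and overlapping open stretches were merged. This gave 406 segments on 175 HEK293 transcripts and 1356 on 440 mES transcripts. A merged segment need not reach 0.35 over its whole length in every file. On ENSMUST00000117405, for example, the segment from nt 42 to 99 had a mean of 0.303 in nucleoplasm in vitro. Their median length was 27 nt in HEK293 (quartiles 23 and 32) and 26 nt in mES cells (22 and 31). Segments of 40 nt or more numbered 25 in HEK293 (6.16%) and 52 in mES cells (3.83%). The longest ran over 119 nt, from nt 253 to 371 of ENST00000309311, with means of 0.391 in vivo and 0.367 in vitro in chromatin, 0.552 and 0.429 in nucleoplasm, and 0.555 and 0.518 in cytoplasm. The longest in mES cells were 68 nt, on ENSMUST00000037565 (nt 555 to 622) and ENSMUST00000062264 (nt 1259 to 1326). Of the segments, 229 in HEK293 and 867 in mES cells held no window of the fixed grid, so most open stretches were not seen by the fixed grid.

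**Figure D4:**
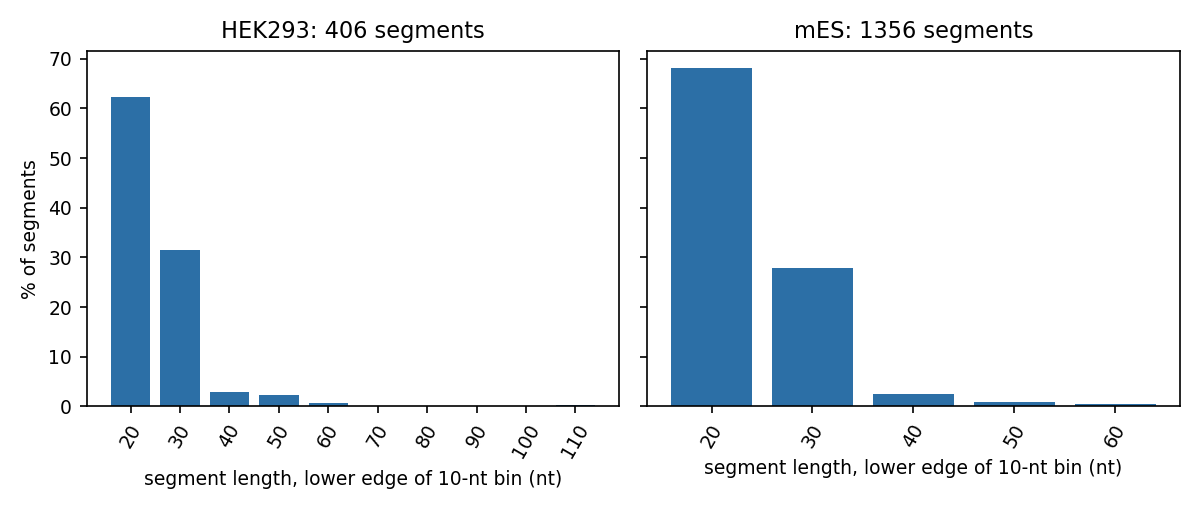
Lengths of merged open segments when the 20-nt rule was applied at every start position (x axis, lower edge of 10-nt bins; y axis, % of the segments of a line). Of the HEK293 segments 62.3% and of the mES segments 68.2% were 20 to 29 nt long; 1 HEK293 segment reached 119 nt.

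Mean scores were lower around the open windows than inside them. The windows were chosen for high means, so a drop at their edges follows from the choice. Over all scorable windows the file means were 0.203 to 0.227 in vivo and 0.213 to 0.243 in vitro in HEK293. In mES cells they were 0.210 to 0.257 in vivo and 0.179 to 0.203 in vitro. The mean score over the 3 in vivo files was 0.512 inside the HEK293 windows, 0.257 over the 5 nt before and 0.325 over the 5 nt after. In vitro these were 0.488, 0.248 and 0.269. The lowest HEK293 values lay 11 to 20 nt after the window, at 0.222 in vivo and 0.185 in vitro, and the values 41 to 60 nt after it were 0.274 and 0.253. In mES cells the in vivo mean was 0.479 inside, 0.316 over the 5 nt before and 0.240 over the 5 nt after. The in vitro means were 0.478, 0.232 and 0.245. From 11 to 20 nt before the mES windows the means were 0.257 in vivo and 0.188 in vitro, and from 11 to 20 nt after them 0.215 and 0.194. From 21 to 40 nt after them they were 0.240 and 0.202. The in vivo curve thus stood above the in vitro curve directly before the mES windows, while over the first 10 nt after them the means were close, and further out they separated again. In vivo means were also the higher ones over all scorable mES windows, so a gap of that sign is not particular to the open windows.

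**Figure D5:**
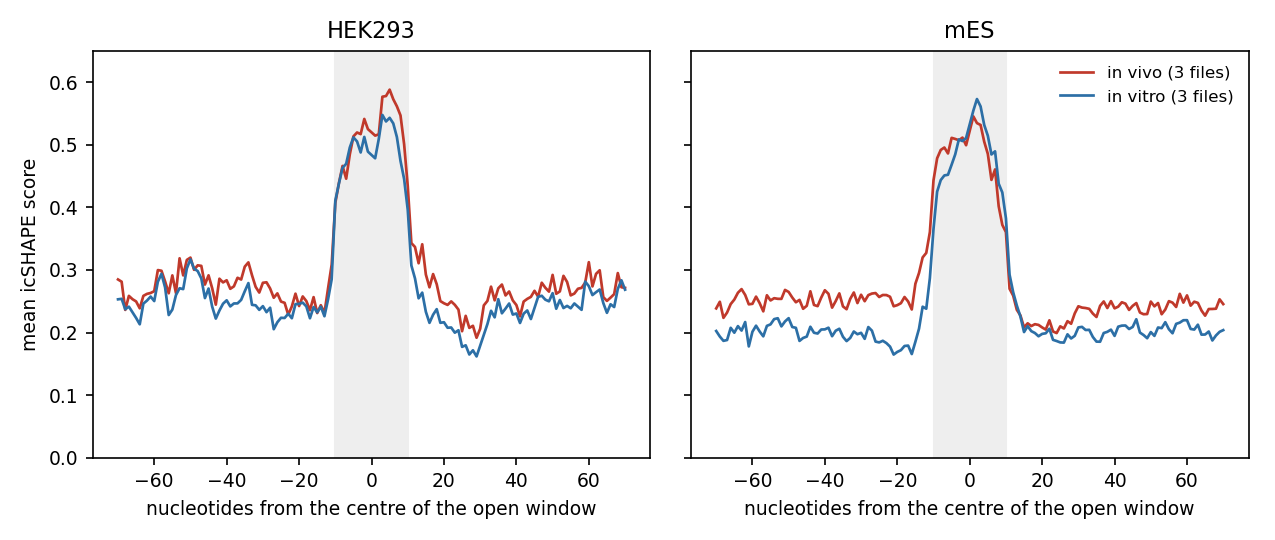
Mean icSHAPE score (y axis) by distance from the centre of the open window (x axis, nt) over the 3 in vivo files (red) and the 3 in vitro files (blue); the shaded 20 nt are the window. Scores drop from about 0.5 inside to about 0.2 to 0.3 within 10 nt on both sides, and in mES cells the curves separate again from about 20 nt on.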

How the data were processed

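icSHAPE scores of 12 samples, 1 per combination of cell line, fraction and probing condition, were used as deposited. Per the files, each row holds a transcript, its length, an abundance signal deposited by the authors with no stated unit, and a score from 0 to 1 per nucleotide made by the authors from NAI-N3 and DMSO libraries. Per the submitters' processing notes, Bowtie2 and UMI-tools were among the tools and hg38 and mm10 the builds. For the score itself, neither formula nor software is named by the labels or files. Per the labels' protocols, deep sequencing was done per replicate, but the files hold no reads, so the depth per nucleotide is unknown. In mES nucleoplasm in vivo 3 scores outside 0 to 1 were treated as not scored. Windows, intervals and medians were computed with Python 3.11.15, NumPy 2.4.6, pandas 2.3.3 and SciPy 1.17.1. The code of the window rule was run on simulated windows built to pass or fail it. That checks the code only and says nothing about how well the rule separates real windows. The members, the lists and the rules for the named windows were chosen with earlier results of these data known. Named were, per line, the 10 windows with the highest floor (1 per transcript), 3 runs, the 3 transcripts with most open windows, 2 windows on each side of the threshold and the 2 with the largest range. Lin28A irCLIP libraries and gene lists were not used here. Alternatives changed the threshold, window, frame, files and transcripts.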

Additional observations from a re-analysis of the deposited data

How the results depend on the processing

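Numbers of open windows followed the threshold: 420 in HEK293 and 1319 in mES cells at 0.30, and 76 and 163 at 0.40. Windows of 10 nt gave 824 and 2850, and windows of 30 nt 45 and 150. Taking the top 10% of each file gave 67 in HEK293. Leaving out the highest nucleotide gave 104 and 244, an abundance of 30 or more in all 6 files 88 and 268, and every start position 406 and 1356 segments; these 3 alternatives were chosen after seeing the data. The percentage next to another open window was 12.86 in HEK293 and 8.795 in mES cells at 0.30, 1.227 in mES cells at 0.40, 16.87 and 10.63 with 10 nt, and 0 in HEK293 with 30 nt. With 1 file left out it lay between 4.167 and 7.944 in HEK293 and between 2.348 and 5.532 in mES cells. It rose by over 1.5 times without chromatin in vitro (7.115), nucleoplasm in vivo (7.944), nucleoplasm in vitro (6.838) or cytoplasm in vitro (7.692) in HEK293, and without nucleoplasm in vivo (5.532) or chromatin in vitro (3.846) in mES cells. With windows starting at nt 11 it was 4.734 in HEK293 and 3.817 in mES cells. The median relative position was 0.4618 in HEK293 with the top 10% and 0.4084 in mES cells with windows starting at nt 11. Values under the remaining alternatives stayed within 1.5 times for counts and within the counting interval otherwise. Apart from the constructions that change the number of windows or files, the cause of these moves was not tested. No paired test was run, because the results are given with no test.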
